A study of Homo sapiens with 6 samples.

Results

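MSMP is the gene of a short secreted protein, also called PC3-secreted microprotein, and MSMB is the gene of the related beta-microseminoprotein. CCR2 encodes a chemokine receptor. The RNA of these 3 genes was followed in PC-3 xenograft tumors. The members were taken by symbol from the expression table, in FPKM (the fragments on a gene, divided by its transcript length and by the mapped fragments of the tumor), where each of the 3 symbols named 1 of 24000 gene entries. The genes were chosen by the FPKM of MSMP, already known to be high in these tumors, so its levels and its difference between groups are given as a description, with no test.

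Tumors from 3 vehicle-treated mice (the control) were set against tumors from 3 mice given WCE, a standardized extract of the herb Wedelia chinensis, with a treatment of 10 weeks in the labels of both groups and no dose. PC-3 is a human prostate cancer line that grows without androgens. All 6 tumors came from this 1 line and grew in nude mice, which lack a thymus and so most T cells. The study's methods describe injection of luciferase-expressing cells into the anterior prostate, and the labels do not say whether the sequenced tumors carried this reporter.

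CCR2 sits on inflammatory monocytes and some lymphocytes and draws them toward its ligands, of which CCL2 is the best known. MSMP was isolated from the medium of PC-3 cells and is known to attract CCR2-bearing cells although it is not a chemokine by sequence. MSMB, a cysteine-rich protein of seminal fluid, is made by the secretory cells of the healthy prostate and is commonly lost in prostate cancer. CCR2 itself is a receptor coupled to inhibitory G proteins.

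The region before the start site is shown for MSMP and for CCR2, the ligand gene and the receptor gene that stood near opposite ends of the expression range. The RefSeq promoter table (GRCh38.p14) held 2 of the 3 members. The 250 bases before each start are printed in the direction of transcription, from chr9:35754277-35754526 on the minus strand and from chr3:46353861-46354110 on the plus strand. Capitals mark matches to TATAAA, the core of the TATA box, and to TGANTCA (N is any base). The latter is a loose pattern around the AP-1 consensus, which has C or G in the middle.
MSMP: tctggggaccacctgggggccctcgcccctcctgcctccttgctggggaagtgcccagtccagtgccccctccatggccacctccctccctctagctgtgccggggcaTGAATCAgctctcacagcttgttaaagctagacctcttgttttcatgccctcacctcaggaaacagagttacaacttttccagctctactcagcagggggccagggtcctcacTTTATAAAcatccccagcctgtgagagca
CCR2: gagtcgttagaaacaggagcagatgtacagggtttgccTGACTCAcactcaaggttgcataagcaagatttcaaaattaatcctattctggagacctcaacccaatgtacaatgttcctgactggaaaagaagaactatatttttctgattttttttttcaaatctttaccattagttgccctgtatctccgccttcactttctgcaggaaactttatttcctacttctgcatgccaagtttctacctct
In MSMP, TATAAA began 27 bases before the start, and its reverse complement overlapped it from 29 bases before. Of 35116 promoters in the table, 10.7% held TATAAA on either strand and 2.30% had it on the forward strand 20 to 40 bases before the start. No TATAAA was found in the CCR2 window. TGANTCA began 142 bases before the start of MSMP, there as TGAATCA, which is outside the AP-1 consensus. It began 212 bases before that of CCR2, there as TGACTCA, which is within it. The loose pattern was held by 6.57% of all promoters. The NFκB consensus, found in 6.88% of promoters, had no match on either strand of these windows.

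WCE replicate 1 and vehicle replicate 3 had nearly the same values. Over 1915 entries with a mean of at least 50 FPKM their median absolute log2 difference was 0.028, whereas any other 2 tumors, 14 pairs in all, had a median of 0.095 to 0.247. All 15805 entries above 0 in WCE replicate 1 were above 0 in vehicle replicate 3, whereas 329 to 546 of them were at 0 in each other tumor. The table holds no read counts, and the depth relative to vehicle replicate 3, read from the steps of low values, was 25.0% in WCE replicate 1 and 64.8% to 85.2% in the others. Whether 1 of these libraries carries another treatment than its label, or shares reads with the other, was not tested, and n = 3 takes the labels as given. The main results are therefore also given without this pair. Leaving out 1 nearly equal value from each group of 3 enlarges a difference by arithmetic. A larger difference without the pair is thus no added support. The tumors carried PC-3 features. KRT8 and KRT18, keratins of epithelial cells, stood at 192 to 253 and 241 to 322 FPKM, and KLK3, the gene of prostate-specific antigen, was at 0 in all 6. STAT3, which PC-3 cells are known to lack, was at 0.0671 to 0.399 FPKM, and STAT5A beside it at 0.

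MSMP was the most abundant entry of 24000 in 5 of the 6 tumors. In vehicle replicates 1 to 3 it reached 19540.4, 17621.1 and 22450.8 FPKM, and in WCE replicates 1 to 3 it reached 22661.0, 36911.9 and 34718.2 FPKM. WCE replicates 2 and 3 stood apart from the rest, and WCE replicate 1 lay close to the vehicle-treated tumors. The groups did not overlap, as was true of 12.8% of all 13287 entries tested in either direction, but the gap between them was 210.2 FPKM, or 0.936%, and lay between the libraries of the nearly identical pair. The group means were 19871 ± 2432 and 31430 ± 7673 FPKM (SD, n = 3 each), a ratio of 1.58 and a difference of 0.64 on the log2(FPKM + 1) scale (standard error 0.23, limma). Without the pair, the means of 2 tumors each were 18581 and 35815 FPKM and the log2 difference was 0.95 (standard error 0.24). In a bulk tumor, more cells of a type and more RNA per cell cannot be told apart.

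**Figure D1:**
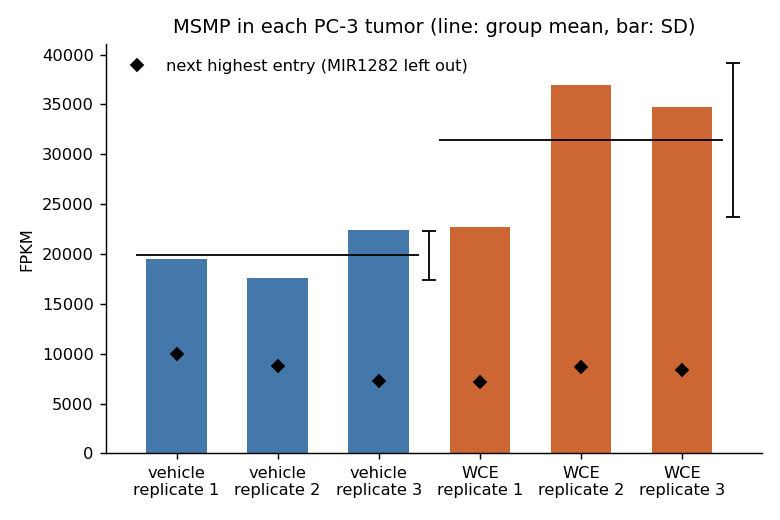
FPKM of MSMP in each of the 6 tumors, with group means as lines and SDs as error bars (n = 3), and the next highest entry of the tumor as a diamond. MIR1282, at 42307 FPKM in WCE replicate 3 and so above MSMP there, is left out of the diamonds. MSMP stands above the diamond in every tumor, and its values in WCE replicates 2 and 3 are the highest, at 36912 and 34718 FPKM.

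The entry next in level, with MIR1282 left out, was RPS24 in 5 tumors and TMSB4X in vehicle replicate 2. RPS24 encodes a protein of the small ribosomal subunit and TMSB4X an actin-binding peptide. MSMP stood at 1.96, 2.02 and 3.07 times this entry in the vehicle-treated tumors and at 3.15, 4.25 and 4.14 times in the WCE-treated tumors. Only MIR1282, a microRNA entry at 0 in 5 tumors but at 42307 FPKM in WCE replicate 3, was above MSMP in any tumor. Apart from MIR1282, the other entries among the 10 highest means were genes of ribosomal proteins and beta-thymosins. The coding transcript of MSMP in GENCODE v29 is 670 bases long.

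**Figure D2:**
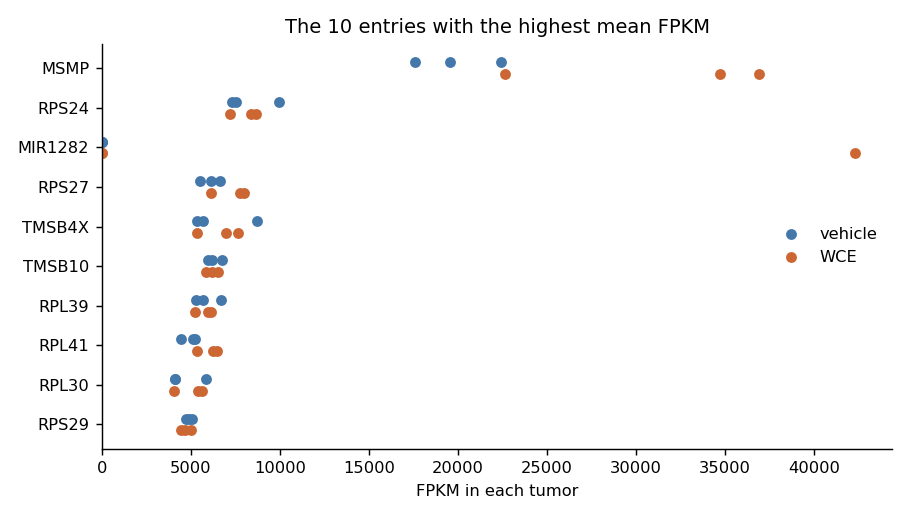
FPKM in each tumor (horizontal axis) for the 10 entries with the highest mean, vehicle in blue and WCE in orange. Apart from MIR1282 in 1 tumor, no other entry reaches the lowest MSMP value of 17621 FPKM.

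The other high entries varied less between the groups. RPS27, which encodes a ribosomal protein, had a log2 difference of 0.25 (standard error 0.16, limma) and RPL41 one of 0.28 (standard error 0.14, limma), while RPS24, TMSB10 and RPL39 lay between −0.03 and −0.02. Among 88 entries with a mean of at least 1000 FPKM the median log2 difference was 0.026, and 1 of them, MIR1282, had a larger one than MSMP. The largest and smallest MSMP values differed 2.09 times.

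MSMP held 2.91%, 2.79% and 3.64% of the summed FPKM of the vehicle-treated tumors and 3.65%, 5.64% and 4.93% of that of the WCE-treated tumors. The share thus averaged 3.11% ± 0.458 and 4.74% ± 1.01 (SD, n = 3 each), and 2.85% and 5.29% without the nearly identical pair (n = 2 each). Column sums ran from 617592 to 703600 FPKM. With MIR1282 taken out of the sum, the share in WCE replicate 3 became 5.25%. A share of summed FPKM is not a share of reads. At a transcript length of 670 bases, MSMP would account for at most 1.18% to 1.50% of mapped fragments in the vehicle-treated tumors and 1.52% to 2.47% in the WCE-treated tumors. Cufflinks, the program that the submitters' notes name, sets FPKM against a shorter effective length, so these values would be an upper limit. That assumes that this transcript was used and that each tumor was divided by its own mapped fragments, neither of which is given.

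When columns are set to a common sum, the room taken by MSMP lowers every other entry of that tumor by the same factor. This shift was −0.043, −0.041 and −0.053 on the log2 scale in the vehicle-treated tumors and −0.054, −0.084 and −0.073 in the WCE-treated tumors. The means differed by −0.025, which at a common sum would be a change of −1.69% in every other entry, and by −0.037 on the log2 scale without the pair. The deposited columns did not have a common sum. Their median-ratio scaling factors were 0.994 to 1.01, so by that measure the tumors were already nearly level, and the −1.69% is not a shift seen in the deposited FPKM. Reckoned from fragments under the assumptions given above, the difference was at most −0.011, or −0.79%. At a common sum, MIR1282 would shift the other entries of WCE replicate 3 by −0.089, more than MSMP would in any tumor. For comparison, the median standard error of a log2 difference over all 13287 entries tested was 0.133.

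The choice of sum changed which entries were called and the balance of their directions. Leaving MSMP out of the sum raised the median log2 difference over all entries from −0.044 to −0.022, against −0.0063 with FPKM as deposited. Of 13286 other entries, 631 changed sign and 193 changed side of an unadjusted p of 0.05 by limma. The count under this threshold was 944 with FPKM as deposited, or 7.10% of entries, 873 with columns scaled to their sum and 826 with MSMP left out of the sum. The entries higher in WCE made up 53.2%, 28.8% and 39.2% of these, and 56.1% of 954 with median-ratio scaling. MIR1282, at 6.01% of the sum in WCE replicate 3, stayed in both sums, and no fit left it out of the sum. How much of the change in balance came from MSMP, from MIR1282 or from other entries was not tested. MSMP itself had a log2 difference of 0.59 with columns scaled to their sum and 0.62 with MSMP left out of it.

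**Figure D3:**
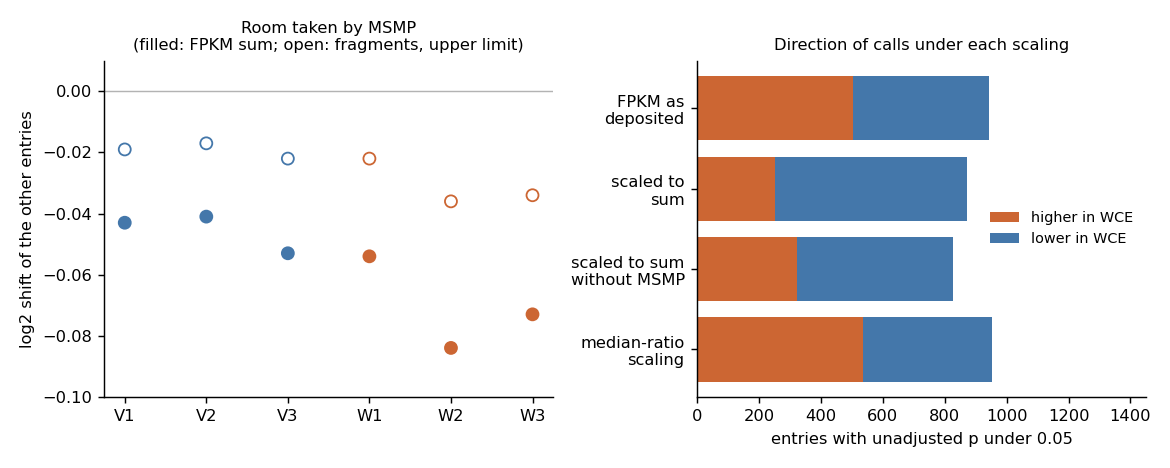
Left, log2 shift of all other entries set by MSMP in each tumor (V for vehicle, W for WCE), from summed FPKM (filled) and from fragments (open). The open points are an upper limit only under the assumptions given in the text. The lowest point is at −0.084 in WCE replicate 2. Right, entries with an unadjusted p under 0.05 by limma under 4 scalings, split by direction, where the share higher in WCE runs from 28.8% to 56.1%. Both sums include MIR1282.

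The locus listed for MSMP, on chromosome 9 from 35749277 to 35754274 in the human coordinates of the table, is shared with RGP1 on the opposite strand, so it is not the extent of MSMP alone. The notes of the submitters name hg19 and mm10 without saying which file used which. The libraries were strand-specific, but whether strand was used in counting is not given in the sources used here, and low RGP1 values may hold reads of MSMP. The table lists 6 other entries within 50000 bases. Of these, 5 had a higher mean in WCE-treated tumors, as had 48.6% of all entries, with a median log2 difference of 0.47 against −0.0063 over all entries.

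GBA2, which encodes a glucosylceramidase and lies on the same strand as MSMP, was the most abundant of the 6. Under vehicle it stood at 86.7, 78.6 and 95.8 FPKM, and under WCE at 97.3, 185 and 157 FPKM. The order of the tumors was that of MSMP, and MSMP was 200 to 234 times GBA2 in each of them. Whether the values of GBA2 hold reads of MSMP was not tested. The log2 difference of GBA2 was 0.70 (standard error 0.22, adjusted p = 0.623 and unadjusted p = 0.0155 by limma) and 1.04 (standard error 0.13, adjusted p = 0.171 by limma) without the pair. RGP1, a partner of the Golgi exchange factor for RAB6, stood at 8.50, 5.44 and 8.39 FPKM under vehicle and at 8.99, 13.5 and 13.8 FPKM under WCE. Its log2 difference was 0.63 (standard error 0.21, adjusted p = 0.623 by limma). SPAG8, a sperm-associated gene, was at 0.142, 0.558 and 0.447 FPKM and at 0.736, 1.36 and 1.10 FPKM, a log2 difference of 0.58 (standard error 0.18, adjusted p = 0.623 by limma) that became 1.36 with a pseudocount of 0.1.

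In GBA2, RGP1 and SPAG8 the groups did not overlap, in GBA2 by the difference between the libraries of the nearly identical pair alone, as in 6.37% of all entries in the same direction, and by limma each had p under 0.05 before adjustment, as did 3.78% of all entries. No adjusted p of the 6 passed 0.05, as was true of all but 0.00753% of entries, which is the small RNA SNORA76. TLN1, the gene of the focal adhesion protein talin, had a log2 difference of 0.37 (unadjusted p = 0.0569 by limma) and overlapping groups. NPR2, a natriuretic peptide receptor, had 0.26. CREB3, a membrane-bound transcription factor on the far side of GBA2, stood at 26.9 to 33.2 FPKM under vehicle and 26.4 to 30.9 FPKM under WCE, with a log2 difference of −0.07.

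**Figure D4:**
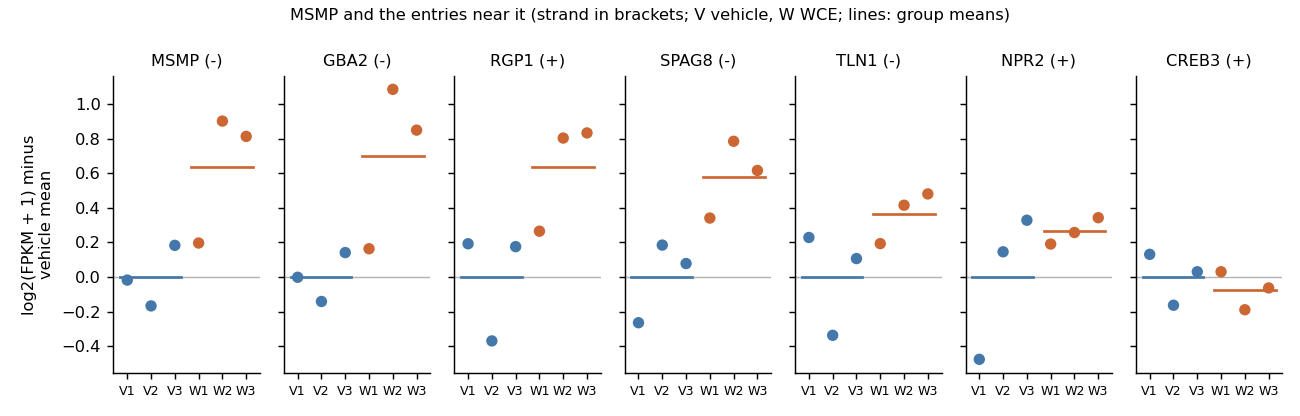
Values of log2(FPKM + 1) minus the vehicle mean in each tumor for MSMP and the 6 entries within 50000 bases, with the strand in GENCODE v29. GBA2 and RGP1 follow MSMP with WCE replicates 2 and 3 highest, while CREB3 has overlapping groups and a difference of −0.07.

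The epithelial adhesion gene EPCAM, 1 of 5 markers of PC-3 cells that were all tested, had the largest log2 difference of the 5 in size. It stood at 305, 250 and 185 FPKM under vehicle and at 180, 138 and 123 FPKM under WCE, a log2 difference of −0.73 (standard error 0.21, adjusted p = 0.623 and unadjusted p = 0.00889 by limma). Its groups did not overlap, with the gap again between the libraries of the nearly identical pair, as in 6.40% of all entries in that direction, while 3.33% of all entries were lower with an unadjusted p under 0.05 by limma. The other 4 markers had overlapping groups, with log2 differences of 0.05 for KRT8, 0.10 for KRT18, −0.01 for KRT19 and 0.41 for VIM, and the part of EPCAM-bearing cells in the MSMP values was not tested.

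Many entries varied with MSMP from tumor to tumor. Among 9239 other entries with a mean of at least 5 FPKM, Pearson's r with MSMP over the 6 tumors, on the log2(FPKM + 1) scale, was over 0.9 in 4.4% and under −0.9 in 4.2%. These tumors include the nearly identical pair, so r rests on few independent points. The 5 highest were MANBAL (r = 0.999), CTDSP1 (0.998), LAMB2, ATN1 and GNAS (0.995 each). MANBAL stood at 64.5, 61.3 and 67.2 FPKM under vehicle and at 68.1, 84.2 and 81.2 FPKM under WCE, a spread of 1.37 times. GNAS, the gene of the stimulatory G protein alpha subunit, ran from 786 to 1218 FPKM. LAMB2, a laminin chain, and ATN1, the transcriptional corepressor atrophin 1, spanned 1.86 and 2.21 times. The 3 lowest were PNPT1 (−0.997), SLC29A1 and CD2AP (−0.996 each). PNPT1 encodes a mitochondrial RNA-degrading enzyme and SLC29A1 a nucleoside transporter. CD2AP, an adapter of the actin cytoskeleton, ranked the tumors in the reverse order, from vehicle replicate 2 with 20.3 FPKM to WCE replicate 2 with 10.8 FPKM.

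MSMB, the prostate relative of MSMP, was barely detected. Vehicle replicate 1 had 0.262 FPKM, WCE replicate 3 had 0.211 FPKM and the other 4 tumors were at 0, with the locus on chromosome 10 from 51549553 to 51562518. Multiplied by the relative depth of its tumor, each value became 0.170 or 0.169, so both rest on the same small number of reads, which may be 1. MSMB thus did not reach the mean of 0.5 FPKM required for a test, and a difference between groups was not detectable at this depth (0.0872 ± 0.151 against 0.0704 ± 0.122 FPKM, SD, n = 3 each). Its share of summed FPKM was at most 3.90e-05%, beside the 2.79% or more held by MSMP.

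Of 15 other genes of prostate secretory cells, 7 reached the mean of 0.5 FPKM, beside 55.4% of all entries, and KLK2 and KLK3 were at 0 in all tumors. The highest were NPY, at 16.4 to 54.3 FPKM, and the serine protease gene TMPRSS2, at 9.94, 22.0 and 22.3 FPKM under vehicle and 22.9, 25.9 and 26.1 FPKM under WCE. FOLH1, the gene of prostate-specific membrane antigen, and SLC45A3, a sugar transporter gene, had means of 6.39 and 6.08 FPKM. TMPRSS2 and SLC45A3 had groups that did not overlap, higher under WCE, beside 6.37% of all entries, and in both genes the gap lay between the libraries of the nearly identical pair. By limma, 0 of the 7 had p under 0.05 before adjustment, and their median log2 difference was 0.22. The entries beside MSMB were expressed. NCOA4, the cargo receptor for ferritin breakdown, stood at 35.8 to 40.8 FPKM under vehicle and 32.8 to 38.3 FPKM under WCE, with a log2 difference of −0.15 (unadjusted p = 0.177 by limma). TIMM23, a mitochondrial import channel gene, had −0.11.

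CCR2, on chromosome 3 from 46395235 to 46402413, was at the limit of detection. Under vehicle it was at 0, 0 and 0.0371 FPKM, and under WCE at 0.0740, 0.0217 and 0 FPKM. The value was above 0 in 1 vehicle-treated and 2 WCE-treated tumors. With the relative depth taken into account, the 3 values stood in the ratio 2 to 1 to 1, as do reads in the smallest whole numbers. Means were 0.0124 ± 0.0214 and 0.0319 ± 0.0380 FPKM (SD, n = 3 each), which no test can tell apart at this depth, and CCR2 too was under the mean of 0.5 FPKM. The table lists human genes, and 0 of its symbols were written as mouse symbols are, so Ccr2 RNA of host cells was not analysed here. Without the nearly identical pair, CCR2 was above 0 in 1 of 4 tumors.

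CCL2 was the only other CCR2 ligand with a mean of at least 0.5 FPKM. Its level was 0, 6.50 and 3.13 FPKM under vehicle and 1.74, 3.99 and 2.62 FPKM under WCE. The groups overlapped, and vehicle replicate 1 stood alone at 0. Mean FPKM was 3.21 ± 3.25 under vehicle and 2.78 ± 1.13 under WCE (SD, n = 3 each), whereas the log2 difference had the opposite sign, at 0.22 (standard error 0.66, adjusted p = 0.935 by limma), and was −0.60 without vehicle replicate 1. CCL7 was listed at 0.104 FPKM in vehicle replicate 2 and at 0 elsewhere, and CCL8, CCL13 and CCL16 were at 0 in all 6 tumors. MSMP was therefore far above each of these human chemokines that share its receptor. Ligands made by host cells were not analysed here. The study measured mouse Ccl2 RNA in PC-3 tumors with mouse-specific primers and reported that it was significantly lower under WCE.

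Of 11 receptors related to CCR2 in sequence or position, 3 had a mean of at least 0.5 FPKM. CCRL2, an atypical receptor that presents chemerin, was at 3.73, 5.09 and 4.35 FPKM under vehicle and at 3.80, 3.34 and 4.81 FPKM under WCE, a log2 difference of −0.12 (standard error 0.15, adjusted p = 0.813 by limma). CCR1 was at 0.343, 0.392 and 0.814 FPKM and at 1.18, 0.130 and 0.300 FPKM, highest in the nearly identical pair. CCBP2, a decoy receptor that removes inflammatory chemokines, CCL2 among them, was at 0.793 to 1.21 FPKM under vehicle and 0.603 to 0.744 FPKM under WCE. Its groups did not overlap, as in 6.40% of all entries with a lower level under WCE, and its log2 difference was −0.21 (standard error 0.14, adjusted p = 0.651 by limma). The log2 difference of CCR1 was −0.03, although its mean FPKM was 0.516 under vehicle and 0.537 under WCE, and its sign turned when single tumors were left out. Of the 3 tested receptors, 0 had an unadjusted or adjusted p under 0.05 by limma.

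**Figure D5:**
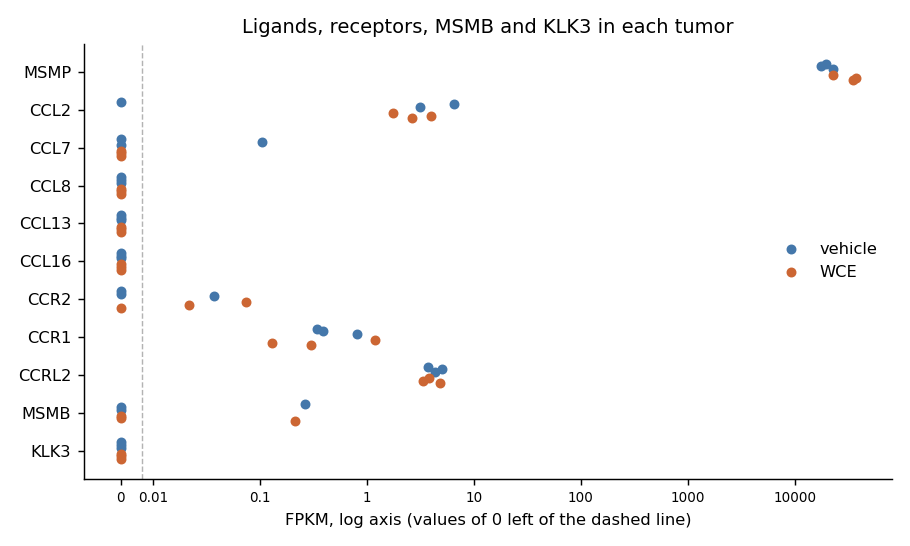
FPKM in each tumor on a log axis for MSMP, the other CCR2 ligands, CCR2, related receptors, MSMB and KLK3, with values of 0 to the left of the dashed line. MSMP lies at 17621 FPKM or more in every tumor, CCL2 at 6.50 FPKM or less, and CCR2 at 0.0740 FPKM or less.

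Of the intracellular partners through which CCR2 is known to act, 21 genes were found and 15 were tested, beside 55.4% of all entries. Of these 15, 8 had a higher mean under WCE, as had 48.6% of all entries tested, and 7 had a lower one. Their median log2 difference was 0.01, against −0.0063 over all entries. GNAI1, GNAI2 and GNAI3 encode inhibitory G protein alpha subunits. GNAI2 was the highest of these, at 134, 123 and 123 FPKM under vehicle and 126, 156 and 157 FPKM under WCE, a log2 difference of 0.20 (standard error 0.12, adjusted p = 0.623 by limma). GNAI1 was at 19.8, 19.5 and 17.4 FPKM and at 17.2, 14.3 and 15.8 FPKM, and was the 1 gene of the 15 with an unadjusted p under 0.05 by limma (0.0486, adjusted p = 0.623), beside 3.33% of all entries in that direction. The groups of GNAI1 did not overlap, the gap lying between the libraries of the nearly identical pair, nor did those of JAK2, beside 6.40% of all entries in that direction. GNAI3 differed by −0.04.

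RAC1, a GTPase of cell movement, was at 210 to 232 FPKM with a difference of −0.05. RAC2, its relative of blood cells, was at 28.5, 29.5 and 22.9 FPKM under vehicle and at 21.1, 38.4 and 40.7 FPKM under WCE, a log2 difference of 0.25 (standard error 0.24, adjusted p = 0.736 by limma). It was 0.43 (unadjusted p = 0.00726 and adjusted p = 0.183 by limma) without the nearly identical pair and 0.54 without WCE replicate 1 alone, but 0.13 and 0.085 without WCE replicate 2 or 3. NUP85, a nuclear pore protein also known to bind CCR2 as FROUNT, differed by −0.06, and ADRBK1, a receptor kinase, by 0.08. The beta-arrestin genes ARRB1 and ARRB2 differed by 0.14 and 0.09. The kinase genes JAK2, JAK3 and PTK2B differed by −0.16, 0.05 and −0.12, and GNA11, GNAQ and PLCB3 by 0.29, −0.06 and 0.01, PLCB3 with the opposite sign when columns were scaled to their sum. Adjusted p lay between 0.623 and 0.974 over the 15 genes by limma. The other 6 genes, among them STAT3, STAT5A and STAT5B and, of blood cells, PIK3CG and PLCB2, had means under 0.5 FPKM.

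Of 12 markers of monocytes and macrophages, the cells that carry CCR2, CD68 and the lectin gene CD33 reached a mean of 0.5 FPKM. These are human entries, whereas monocytes and macrophages that enter a xenograft come from the mouse, so their number cannot be read from this list. By flow cytometry, the study found fewer macrophages and myeloid-derived suppressor cells in PC-3 tumors under WCE. CD68, a lysosomal protein that is also made outside myeloid cells, was at 25.3, 30.4 and 40.0 FPKM under vehicle and at 38.7, 39.6 and 43.9 FPKM under WCE, a log2 difference of 0.37 (standard error 0.16, unadjusted p = 0.0562 by limma). Without the nearly identical pair the difference was 0.57 (unadjusted p = 0.00712 and adjusted p = 0.182 by limma). In that fit by limma, 2449 of 13287 entries had an unadjusted p under 0.05, beside 944 with all tumors. CD33 was at 0.565, 2.11 and 1.09 FPKM under vehicle and at 1.34, 3.38 and 2.34 FPKM under WCE, a log2 difference of 0.58 (standard error 0.30, adjusted p = 0.623 by limma) with overlapping groups. CD14 was at most 0.566 FPKM, PTPRC at most 0.666 FPKM and CSF1R at most 0.145 FPKM, and both entries of MRC1 were at 0. The summed level of the list was 26.7 to 42.9 FPKM under vehicle and 42.2 to 47.5 FPKM under WCE, most of it CD68. Its part in the MSMP values was not tested.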

How the data were processed

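RNA of 6 PC-3 tumors, 3 vehicle-treated and 3 WCE-treated, was measured from strand-specific mRNA libraries. The authors deposited 1 table of FPKM values with 1 column for each tumor. The submitters' processing notes name TopHat2 2.0.13, Cufflinks, hg19 and mm10 without a role. Which annotation was used, and whether tumors were scaled to each other, is not given in the sources used here. Each column name matched 1 sample label, and 0 columns were left out.

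Entries with a mean of at least 0.5 FPKM (13287 of 24000) were compared on log2(FPKM + 1), a scale that understates the change of low genes, by two-sided tests of limma 3.58.1 (R 4.3.3) with the variance trend on and Benjamini-Hochberg adjustment over all entries. Shares are of the FPKM sum of a tumor. Relative depth is the commonest ratio of low values of entries with 1 start site to those of vehicle replicate 3. Counting intervals could not be given because the number of reads is unknown. Loci are counted from 1 as the table lists them. Python 3.11.15 with pandas 2.3.3 and matplotlib 3.10.9 was used, and the fit was tested on simulated data.

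The members and lists were chosen with earlier results of these data known. Genes named are the members, the tested genes of the CCR2 lists, the highest of the other lists, the 10 highest entries, the 5 most and 3 least like MSMP in r, and entries within 50000 bases. SNORA76 and MIR1282 were named because a count or share turned on them, and KLK2, KLK3, CSF1R and MRC1 after their values were seen. Other settings tried were a smaller pseudocount, other filters and scalings, no trend, a replicate block and tumors left out.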

Additional observations from a re-analysis of the deposited data

How the results depend on the processing

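MSMP was higher under WCE in every alternative, with a log2 difference of 0.50 to 0.86 when 1 tumor was left out and 0.95 without the nearly identical pair. Leaving tumors out could not turn the direction of MSMP, because its groups did not overlap. Its share of summed FPKM was higher by 1.18 to 2.18 percentage points with 1 tumor left out and by 2.44 without the pair, and the shift of other entries differed by −0.033 to −0.018 and by −0.037. The log2 difference of CCR2 was 0.21 with a pseudocount of 0.1 and −0.0020 to 0.050 with 1 tumor left out, and that of MSMB was −0.11 to 0.092. The count of adjusted p under 0.05 by limma was 0 with no filter (1051 unadjusted), 5 without the pair, and 1 to 7 with 1 tumor left out, with 7 without WCE replicate 1 and 2 without WCE replicate 2. The unadjusted count of 944 became 2449 without the pair and 219 to 2033 with 1 tumor left out. It was 423, 347 and 1771 without vehicle replicates 1, 2 and 3, and 2033, 235 and 219 without WCE replicates 1, 2 and 3.

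Signs turned for some tested partners of CCR2 with 1 tumor left out. The ranges were −0.60 to 0.85 for CCL2, −0.31 to 0.17 for CCR1, −0.11 to 0.020 for GNAI3, −0.16 to 0.070 for GNAQ and −0.084 to 0.39 for ARRB1. They were −0.048 to 0.26 for ARRB2, −0.12 to 0.013 for NUP85, −0.092 to 0.13 for JAK3, −0.075 to 0.077 for PLCB3 and −1.1e-04 to 0.13 for ADRBK1. PLCB3 was also at −0.025 with columns scaled to their sum and at −0.0012 with MSMP left out of the sum. The cause was not tested. The other 378 comparisons of single genes kept their direction and their side of the threshold. The neighbors of MSMP, whose alternatives were added after seeing the data, ranged over 0.51 to 1.04 for GBA2, 0.45 to 0.91 for RGP1 and 0.45 to 1.36 for SPAG8, with lowest adjusted p by limma of 0.0916, 0.167 and 0.191.

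The replicate numbers were not taken to pair the tumors. Deviations of same-numbered tumors from their group means correlated at −0.241, 0.16 and −0.093, which with so few tumors cannot settle whether they were paired. With a replicate block, limma gave 1 adjusted and 1049 unadjusted calls, and the log2 difference of MSMP was 0.64. The absolute depth is unknown, and values of MSMB and CCR2 rest on the smallest steps the table holds.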
